A study of Mus musculus with 6 samples.

Results

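Aminoacyl-tRNA synthetases are the enzymes that attach each amino acid to its transfer RNA, and they were followed here in skeletal muscle stem cells (satellite cells) of old and young mice. The members were found by symbol (the 1-letter code of an amino acid followed by ars, with Eprs, Farsa, Farsb and Fars2), which gave 36 of the 12067 lines of the expression table. Of these, 20 encode cytosolic enzymes and 16, whose symbols end in ars2, mitochondrial ones. The filter on low values (RPKM, reads per kilobase of gene, scaled to library size, of at least 1 in 2 or more libraries) passed 33 members, all 20 cytosolic and 13 mitochondrial. Of the 3 that it left out, Cars2 and Wars2 are described by their levels alone.

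Male C57BL/6 mice gave 3 groups of 2 libraries. Old GSH-low and old GSH-high cells came from animals of 23 months, with 2 animals pooled per library, and young cells from animals of 4 months, with 1 animal per library. All cells were sorted from limb muscle as CD45-, CD31-, Sca1- and VCAM+, stained with ThiolTracker Violet at 5 uM, which reports reduced glutathione (GSH), and sorted again. Old cells were divided by the dye, young cells were kept whole and per the labels nearly all stained high, and no young GSH-low group exists to set beside the old one.

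A tRNA without its amino acid cannot be used by the ribosome, so every cell needs a full set of these enzymes, and mitochondria need a set of their own for the few proteins that they make themselves. The enzymes fall into class I and class II, whose catalytic domains have different folds. Several cytosolic members join with the scaffold proteins Aimp1, Aimp2 and Eef1e1 in the multisynthetase complex. When amino acids run short, uncharged tRNA activates the kinase GCN2 (Eif2ak4), and the transcription factor ATF4, which is then made, raises many cytosolic synthetase genes in other cells.

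Short stretches of promoter are shown because that ATF4 route acts through a recognisable DNA site. RefSeq promoters on GRCm38.p6 (250 bases before to 50 after a gene's start) were found for 27 members; Cars, Hars, Hars2, Lars, Nars, Rars, Vars and Wars were among those not matched. The composite site of C/EBP and ATF factors was searched on both strands as TGATGNAA, which reads TTNCATCA on the other strand. It occurred in 5 of 13 cytosolic members (38.5%), in 0 of 14 mitochondrial members, in 2.71% of 8329 tested genes with a promoter and in 3.97% of all 32851 promoters. The stretches of 4 members read 5′ to 3′ on the gene's strand, with the matched letters in capitals.
Gars, 30 bases before the start: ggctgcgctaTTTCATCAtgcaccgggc
Iars, just after the start: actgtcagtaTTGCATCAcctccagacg
Tars, 15 bases before the start: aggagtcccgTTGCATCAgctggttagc
Yars, just after the start: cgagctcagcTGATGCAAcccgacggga
They lie at chr6:55037961-55037988 (+), chr13:49682127-49682154 (+), chr15:11399656-11399683 (-) and chr4:129189896-129189923 (+). A match of letters is a description and not evidence that a factor binds there.

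The core of the site of NRF1, a factor of many genes of mitochondria and housekeeping, was searched as CGCANGCG, with CGCNTGCG on the other strand. It occurred in 6 of 13 cytosolic members (46.2%: Farsa, Farsb, Gars, Kars, Mars and Tars) and in 4 of 14 mitochondrial members (28.6%: Iars2, Mars2, Vars2 and Wars2), against 20.2% of the tested genes and 8.21% of all promoters. Of these members, Farsb, Gars and Kars fell in old GSH-low against young cells below, and Farsa, Mars, Tars, Iars2, Mars2 and Vars2 did not. Whether the site has a part in the falls was not tested. The stretches of Kars and Farsb and the one nearer the start of Gars are shown.
Kars, 48 bases before the start: cccagcactgCGCCTGCGcagcgagagt
Farsb, 29 bases after the start: ccgcatgtggCGCAGGCGcagtgtccac
Gars, 52 bases before the start: cggctgcgcgCGCCTGCGgcctggctgc
They lie at chr8:112011385-112011412 (-), chr1:78488851-78488878 (-) and chr6:55037939-55037966 (+). The matches of the 2 motifs did not overlap in Gars or Tars, the members that held both.

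Library depth, recovered from the RPKM values, was 50.71 and 47.00 M reads in old GSH-low cells, 68.79 and 60.76 M in old GSH-high and 63.11 and 60.05 M in young libraries. Muscle stem cell markers were abundant in all 6 libraries, with a summed level of 2694 and 2527 RPKM in old GSH-low cells, 3119 and 2964 in old GSH-high and 3287 and 3099 in young cells over 10 of 10 markers. Markers of other cells differed widely between the groups: the 10 tenocyte markers summed to 3069 and 2679 RPKM in old GSH-low cells, 813 and 642 in old GSH-high and 38.5 and 36.2 in young cells. The 12 endothelial markers summed to 22.2 to 27.2, 89.6 to 91.6 and 40.5 to 46.0 RPKM in these 3 groups, and 6 listed lymphocyte markers to 22.9 to 24.6, 2.31 to 3.42 and 1.10 to 1.19 RPKM. The groups therefore differed in markers of other cells as well as in age and dye. In such bulk libraries, fewer cells of a type and less RNA per cell cannot be told apart.

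The synthetase genes spanned a wide range of levels, with the cytosolic enzymes well above the mitochondrial ones. Per exon length, Lars2 (mitochondrial leucine enzyme) was highest, with 196 RPKM over the 6 libraries, and was followed by the cytosolic enzymes for glycine (Gars, 103 RPKM) and asparagine (Nars, 94.2 RPKM). The genes for threonine (Tars), histidine (Hars), cysteine (Cars), tyrosine (Yars), isoleucine (Iars) and alanine (Aars) averaged 55.9, 48.8, 48.7, 48.5, 46.7 and 38.8 RPKM. Then came Dars (aspartate), Rars (arginine), Eprs (glutamate and proline in 1 protein), Farsa (a phenylalanine enzyme subunit) and Kars (lysine), from 35.4 to 26.6 RPKM, and Mars (methionine), Farsb (the other phenylalanine subunit), Sars (serine), Lars (leucine), Vars (valine) and Wars (tryptophan), from 23.3 to 15.2 RPKM. Qars (glutamine) was the lowest cytosolic member at 8.03 RPKM. Neighbours in this order often had ranges over libraries that overlapped, as those of Hars, Cars and Yars did.

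Apart from Lars2, only Yars2 (tyrosine) among the mitochondrial members reached the cytosolic range, at 17.7 RPKM. Rars2, Fars2, Aars2, Iars2, Hars2, Mars2, Tars2 and Ears2 averaged 3.68 to 2.33 RPKM, and Sars2, Vars2 and Nars2 1.92, 1.37 and 1.13 RPKM. Cars2 and Wars2 lay lower still, at 0.768 and 0.660 RPKM. In 13 of 14 pairs of like-named genes, such as Aars and Aars2, the cytosolic gene was higher, by 2.75-fold for tyrosine to 83.1-fold for asparagine (median 16.0-fold, leucine apart). Leucine ran the other way, with Lars at 0.105 times Lars2.

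These levels depend on the gene models. RPKM here divides by all exon bases of a gene, retained introns included, which for Eprs is 18102 bases against 4906 in its principal transcript. Per kilobase of the principal transcript, Eprs moved to rank 4 of the 36 members, while Lars2, Nars and Gars took ranks 1, 2 and 3. Ratios of RPKM of the same gene between libraries do not depend on this length. The filter at 1 RPKM does, and so do the log2 fold changes of low genes, which were taken after adding 1 to RPKM.

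**Figure D1:**
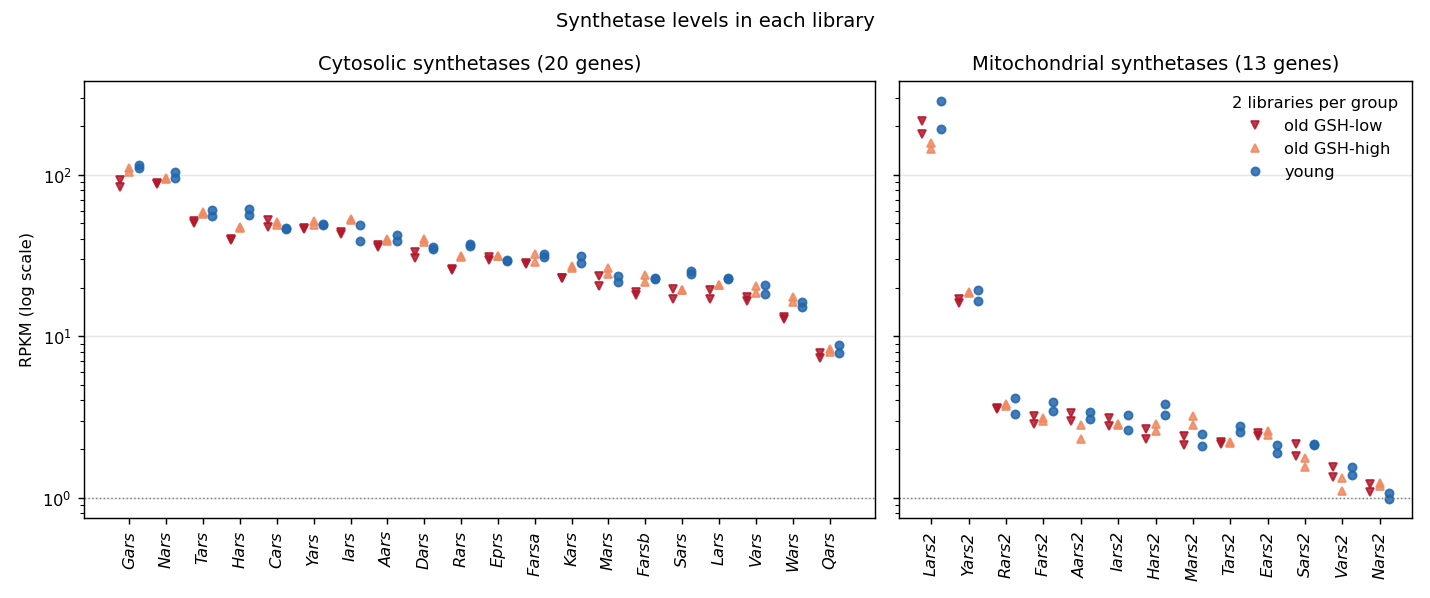
RPKM on a log axis of the 20 cytosolic (left) and 13 mitochondrial (right) synthetases that passed the filter on low values, ordered by mean level, with a point for each library and colours for the 3 groups. All cytosolic genes but Qars lie above 10 RPKM, while 11 of the 13 mitochondrial genes lie below 5 RPKM, and the dotted line marks 1 RPKM.

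Old GSH-low cells were set against old GSH-high cells to compare cells of 1 age that differ in glutathione. Cytosolic synthetase genes were a little lower in old GSH-low cells nearly throughout, but only Wars passed the test. All libraries of old GSH-low lay below all libraries of old GSH-high for 18 of 20 cytosolic members, beside 29.8% of all genes tested, and above them for none, beside 25.7%. The median log2 fold change of the 20 was -0.18, against -0.01 over all 10609 genes, and single values ran from -0.36 to 0.00. Under the other scalings (median-of-ratios and library size only) the median was -0.18 and -0.17, with 19 of 20 below 0 under each. Genes of 1 library share its depth and make-up and are not independent replicates.

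Wars, the tryptophan enzyme and also a gene that interferon gamma raises in many cells, had 13.1 and 12.8 RPKM in old GSH-low cells, against 17.6 and 16.2 RPKM in old GSH-high cells. The groups did not overlap, and the means were 12.9 ± 0.182 and 16.9 ± 1.01 RPKM (SD, n = 2 each). This was a log2 fold change of -0.36 ± 0.09 (SE; limma-trend, adjusted p = 0.0495), and Wars was the 1 member that fell, beside 1.69% of all genes that fell; none rose, beside 3.69%. The call ended with a pseudocount of 0.1 (adjusted p = 0.0559), with median-of-ratios scaling (adjusted p = 0.0513) and without any 1 of the 4 old libraries (adjusted p = 0.166 to 0.360). Wars lies on chromosome 12 at 108860030 to 108894174 (GRCm38).

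Farsb and Dars had the next smallest p-values and did not pass. Farsb had 18.7 and 18.0 RPKM in old GSH-low cells, against 21.8 and 24.1 RPKM in old GSH-high cells, a log2 fold change of -0.31 ± 0.08 (limma-trend, adjusted p = 0.0803). Dars had 33.2 and 30.5 RPKM in old GSH-low cells, against 38.5 and 40.0 RPKM in old GSH-high cells, a change of -0.29 ± 0.08 (limma-trend, adjusted p = 0.0887). Neither gene's groups overlapped. Without young replicate 1 or 2, which changes only the shared estimate of the spread, the count of members that fell was 4, with Dars, Farsb and Iars beside Wars.

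The multisynthetase complex holds 8 of the enzymes (Dars, Eprs, Iars, Kars, Lars, Mars, Qars and Rars). All 8 lay lower in old GSH-low cells without overlap, beside 29.8% of all genes. Eprs differed least, at 29.8 and 30.8 RPKM against 31.3 and 31.2 RPKM in old GSH-high cells. The median was -0.21, and 0 of 8 in the complex passed (the smallest adjusted p, that of Dars, is given above). Its scaffold genes showed the same order of libraries: Aimp1 averaged 2.31 ± 0.126 RPKM in old GSH-low cells and 2.54 ± 0.0560 in old GSH-high cells, Aimp2 11.3 ± 0.900 and 13.8 ± 0.886, and Eef1e1 16.5 ± 0.367 and 19.6 ± 0.835 (SD, n = 2 each), with adjusted p of 0.636, 0.214 and 0.256 by limma-trend. Of the 12 cytosolic synthetases outside the complex, 10 lay lower without overlap, beside the same 29.8%, with a median of -0.15. Cars, at 47.5 and 52.3 RPKM in old GSH-low cells and 50.9 and 48.7 RPKM in old GSH-high cells, and Sars, at 16.9 and 19.5 RPKM against 19.3 and 19.4 RPKM in old GSH-high cells, were the cytosolic members whose groups overlapped.

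Mitochondrial synthetases had no such shared shift. Of the 13 tested, 3 lay lower without overlap and 4 lay higher, beside 29.8% and 25.7% of all genes, and 6 overlapped. Their median log2 fold change was -0.01, and 0 passed. The lowest was Mars2 (methionine), with 2.42 and 2.12 RPKM in old GSH-low cells, against 3.20 and 2.82 RPKM in old GSH-high cells. The highest was Lars2, followed by Aars2 (alanine), at 3.34 and 2.98 RPKM in old GSH-low cells and 2.81 and 2.32 RPKM in old GSH-high cells. Cars2 and Wars2, not tested, were also higher without overlap, at 0.794 and 0.738 RPKM against 0.637 and 0.703 RPKM in old GSH-high cells for Cars2. Whether the compartments differed was not tested.

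Markers of other cells moved in this comparison, and their part in the synthetase values was not tested. All 10 tenocyte markers rose in old GSH-low cells, as did 4 of 4 tested lymphocyte markers and 5 of 6 tested myofibre markers, while 11 of 12 endothelial markers fell. Of 10 muscle stem cell markers 1 rose and none fell: Pax7, the transcription factor of satellite cells, averaged 11.9 ± 1.03 RPKM in old GSH-low cells and 8.37 ± 0.397 RPKM in old GSH-high cells (SD, n = 2 each). The library depth was lower in the old GSH-low libraries than in the others.

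Old GSH-high cells were set against young cells to compare ages at high glutathione. Cytosolic synthetases showed no shared direction: 5 of 20 lay lower without overlap, 5 lay higher and 10 overlapped, beside 33.7% and 32.4% of all genes that lay lower and higher. Their median log2 fold change was -0.01 with 11 of 20 below 0, and it was 0.04 with 7 of 20 below 0 when scaled by library size only. The 3 members that fell were Hars, Sars and Lars2, beside 13.7% of all genes that fell, and none rose, beside 15.1%. Markers of other cells moved in this comparison as well: 11 of 12 endothelial, 9 of 10 tenocyte, 8 of 10 fibro-adipogenic and 5 of 5 tested macrophage markers rose. Of the fibro-adipogenic markers 1 fell, as did 2 of 10 muscle stem cell markers (Calcr and Chodl). Their part in the synthetase values was not tested.

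Hars, the histidine enzyme, had 47.1 and 47.5 RPKM in old GSH-high cells, against 61.5 and 56.5 RPKM in young cells. The groups did not overlap, and the log2 fold change was -0.31 ± 0.08 (limma-trend, adjusted p = 0.0210). Sars, the serine enzyme, had 19.3 and 19.4 RPKM in old GSH-high cells, against 25.4 and 24.3 RPKM in young cells, a change of -0.35 ± 0.09 (limma-trend, adjusted p = 0.0213). Both calls ended without either old GSH-high library or without young replicate 1 (adjusted p = 0.0538 to 0.144 for Hars and 0.0608 to 0.124 for Sars).

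Among the members that did not pass, Iars and Mars2 stood highest. Iars, the isoleucine enzyme, had 53.0 and 52.7 RPKM in old GSH-high cells, against 38.7 and 49.0 RPKM in young cells, a change of 0.27 ± 0.11 (limma-trend, adjusted p = 0.0956). The young libraries of Iars were 1.27-fold apart, and without young replicate 2 the gene passed (log2 fold change 0.44, adjusted p = 0.00477). Mars2 had 3.20 and 2.82 RPKM in old GSH-high cells, against 2.09 and 2.49 RPKM in young cells (0.29 ± 0.11; limma-trend, adjusted p = 0.0780), and passed with limma-voom on recovered reads (0.40, adjusted p = 0.0336) and without young replicate 2 (0.38, adjusted p = 0.0435). Rars, at 31.3 and 31.1 RPKM in old GSH-high cells against 36.1 and 37.1 RPKM in young cells, missed the test (adjusted p = 0.0571) and passed with median-of-ratios scaling (adjusted p = 0.0485).

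Of the mitochondrial members, 7 of 13 lay lower without overlap, 3 lay higher and 3 overlapped, beside 33.7% and 32.4% of all genes lower and higher, with a median of -0.16. Those lower were Lars2, Hars2, Aars2, Sars2, Fars2, Tars2 and Vars2, by 17.0% to 36.8% in mean RPKM. Ears2 (glutamate), Nars2 (asparagine) and Mars2 lay higher, with Ears2 at 2.45 and 2.60 RPKM in old GSH-high cells against 1.89 and 2.12 RPKM in young cells. Only Lars2 passed.

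Lars2 had 145 and 158 RPKM in old GSH-high cells, against 287 and 192 RPKM in young cells, a log2 fold change of -0.63 ± 0.18 (limma-trend, adjusted p = 0.0271). In old GSH-low cells it had 179 and 216 RPKM, above both old GSH-high libraries (0.38 ± 0.18; limma-trend, adjusted p = 0.283). The young libraries were 1.49-fold apart, the widest replicate spread of any member above 1 RPKM. Without young replicate 1 the change of old GSH-high against young was -0.34 (adjusted p = 0.0855), and without either old GSH-high library the call ended as well (adjusted p = 0.143 and 0.0697). Lars2 took 79.9% and 82.6% of the summed mitochondrial synthetase RPKM in old GSH-low cells, 75.3% and 77.1% in old GSH-high and 85.1% and 80.3% in young cells. A sum over the mitochondrial genes therefore mostly follows Lars2; without it the other 15 summed to 44.9 and 45.5, 47.4 and 46.9, and 50.1 and 47.1 RPKM in these 3 groups.

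The reads of Lars2 need care. Near its 3′ end the principal transcript (chromosome 9, gene at 123366927 to 123462666) shares 72 bases at 98.6% identity with Gm15564 and stretches of 97 and 50 bases at 94.8% and 96.0% identity with AA474408, so that reads there could belong to either. The spread of Lars2 over libraries resembled that of 2 abundant non-coding RNAs, chosen after their values were seen: relative to its mean over the 6 libraries, Rn7sk stood at 1.02 and 1.18 in old GSH-low cells, 0.69 and 0.79 in old GSH-high and 1.41 and 0.91 in young cells. Malat1 stood at 0.98 and 1.27, 0.79 and 0.84, and 1.23 and 0.88 in these 3 groups, and Lars2 at 0.91 and 1.10, 0.74 and 0.81, and 1.46 and 0.98. In all 3 genes the old GSH-high libraries were lowest, and young replicate 1 lay above young replicate 2. What part library make-up or shared sequence has in the Lars2 values was not tested.

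**Figure D2:**
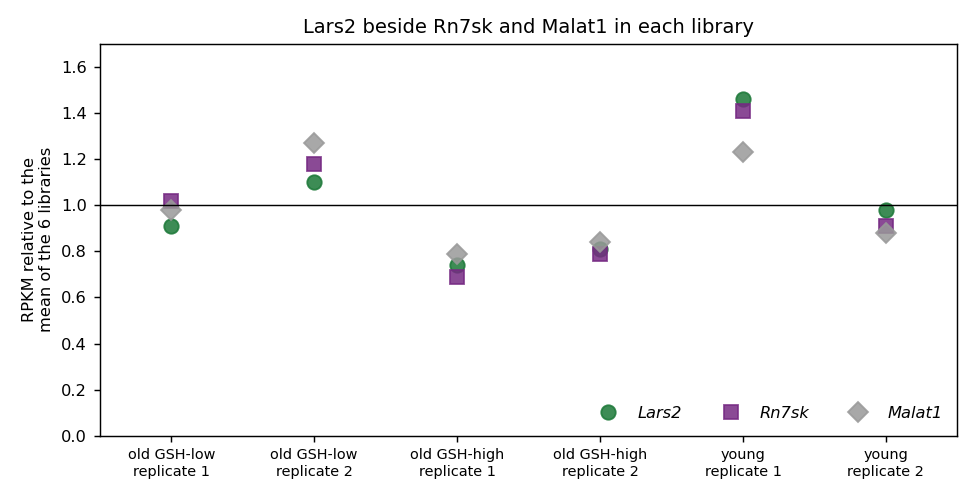
RPKM of Lars2, Rn7sk and Malat1 in each of the 6 libraries, divided by the gene's mean over the 6 (line at 1). Lars2 runs from 0.74 times its mean in old GSH-high replicate 1 to 1.46 times in young replicate 1, beside 0.69 and 1.41 times for Rn7sk in the same libraries.

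Old GSH-low cells were also set against young cells, a comparison in which age and glutathione differ together. It shares its libraries with the comparisons above and is no separate evidence for them. Cytosolic synthetases were lower in old GSH-low cells: 15 of 20 lay lower without overlap, beside 36.5% of all genes, and 2 (Cars and Eprs) lay higher, beside 32.6%. Their median log2 fold change was -0.17, against -0.02 over all genes, with 18 of 20 below 0; under library size only it was -0.11 with 16 of 20 below 0. Of the 33 members, 9 fell, beside 18.7% of all genes, and none rose, beside 18.1%. Of the 9, 8 were cytosolic and the other was Hars2. Markers of other cells moved here too. All 10 tenocyte, 5 of 5 macrophage, 4 of 4 lymphocyte and 5 of 7 Schwann cell markers that were tested rose, and 7 of 12 endothelial markers fell. Of 8 pericyte and smooth muscle markers 5 rose and 1 fell, of 10 fibro-adipogenic 6 and 2, and of 6 myofibre 4 and 1. Summed over their lists, myofibre markers stood at 81.3 and 83.7 RPKM in old GSH-low cells, against 108 and 119 RPKM in young cells. A large part of that sum was Actn3, the 1 that fell, which averaged 39.5 RPKM in old GSH-low cells and 92.7 RPKM in young cells. Pericyte and smooth muscle markers summed to 162 and 158 RPKM, against 186 and 195 RPKM in young cells. Both sums were lower although more markers rose than fell in each list. Of 10 muscle stem cell markers 3 fell and 1, Pax7, rose: Calcr, the calcitonin receptor, averaged 21.4 ± 2.15 RPKM in old GSH-low cells and 43.4 ± 4.52 RPKM in young cells, and Itga7, an integrin subunit, 52.0 ± 9.84 and 74.3 ± 8.11 RPKM (SD, n = 2 each). The part of these markers in the synthetase values was not tested.

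Hars fell most. It had 39.7 and 40.3 RPKM in old GSH-low cells, against 61.5 and 56.5 RPKM in young cells, a difference in means of -32.1% and a log2 fold change of -0.55 ± 0.08 (limma-trend, adjusted p = 0.00110). Rars, the arginine enzyme (chromosome 11, 35808381 to 35834506), had 25.8 and 26.2 RPKM in old GSH-low cells, against 36.1 and 37.1 RPKM in young cells (-0.48 ± 0.08; limma-trend, adjusted p = 0.00171). Old GSH-high libraries of both genes lay between those of the other groups, as did those of Kars and Lars. Hars and Rars passed under all 13 alternatives, with adjusted p from 0.000597 to 0.0145 and from 0.00118 to 0.0209.

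Sars had 16.9 and 19.5 RPKM in old GSH-low cells, against 25.4 and 24.3 RPKM in young cells (-0.43 ± 0.09; limma-trend, adjusted p = 0.00650). Kars and Gars, each of which makes the lysine or glycine enzyme of both the cytosol and the mitochondria from 1 gene, fell too. Kars had 22.8 and 23.0 RPKM in old GSH-low cells, against 31.6 and 28.5 RPKM in young cells (-0.38 ± 0.08; limma-trend, adjusted p = 0.00886). Gars had 84.2 and 93.2 RPKM in old GSH-low cells, against 110.1 and 115 RPKM in young cells (-0.34 ± 0.09; limma-trend, adjusted p = 0.0167). In none of the 3 did the groups overlap.

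Lars, which charges leucine and in human cells also takes part in leucine sensing by mTORC1, had 17.1 and 19.3 RPKM in old GSH-low cells, against 23.1 and 22.6 RPKM in young cells (-0.31 ± 0.09; limma-trend, adjusted p = 0.0211). Farsb had 18.7 and 18.0 RPKM in old GSH-low cells, against 23.0 and 22.6 RPKM in young cells (-0.30 ± 0.08; limma-trend, adjusted p = 0.0233). Its partner subunit Farsa, with 28.2 and 28.6 RPKM in old GSH-low cells against 32.3 and 31.0 RPKM in young cells, did not pass (-0.15 ± 0.09). Wars had 13.1 and 12.8 RPKM in old GSH-low cells, against 16.4 and 15.2 RPKM in young cells (-0.26 ± 0.09; limma-trend, adjusted p = 0.0413).

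Hars2, the mitochondrial histidine enzyme, had 2.30 and 2.68 RPKM in old GSH-low cells, against 3.81 and 3.23 RPKM in young cells (-0.37 ± 0.11; limma-trend, adjusted p = 0.0270), from 506 and 552 against 992 and 811 reads. Hars and Hars2 lie head to head on chromosome 18 (36766528 to 36783205 and 36783008 to 36792562) and share 195 exon bases. Strand of the libraries is not given in the sources used here, so reads in that stretch cannot be assigned to 1 gene with certainty.

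Most of these calls ended without old GSH-low replicate 1, which leaves that group with 1 library and takes the calls over all genes, in both directions, to 2068 as against 3901. There 2 members fell, Hars and Rars, and the other 7 had log2 fold changes of -0.23 to -0.37 with adjusted p of 0.0638 (Kars), 0.0707 (Sars), 0.0926 (Farsb), 0.144 (Wars), 0.150 (Gars), 0.175 (Lars) and 0.175 (Hars2). Scaled by library size only, the calls of Lars (adjusted p = 0.0561), Farsb (0.0635) and Wars (0.0961) ended. Further calls ended without 1 other library: Farsb without old GSH-low replicate 2 (adjusted p = 0.124), Hars2 without young replicate 1 (0.113), and Wars without any library but young replicate 2 (0.0738 to 0.162).

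By class, all 10 cytosolic class II genes (Aars, Dars, Farsa, Farsb, Gars, Hars, Kars, Nars, Sars and Tars) lay lower in old GSH-low than in young cells without overlap, with a median of -0.24, and 5 fell, beside 36.5% of all genes lower without overlap and 18.7% that fell. Of the 9 cytosolic class I genes, 5 lay lower without overlap, with a median of -0.12, and 3 fell (Lars, Rars and Wars). Whether the classes differed was not tested. Of the 8 enzymes of the multisynthetase complex 3 fell (Kars, Lars and Rars), while Eprs, its largest enzyme, had 29.8 and 30.8 RPKM in old GSH-low cells and 29.7 and 29.2 RPKM in young cells (0.04 ± 0.08; limma-trend, adjusted p = 0.719). Of its 3 scaffold genes Aimp1 and Aimp2 fell, by 0.32 and 0.33 on the log2 scale (limma-trend, adjusted p = 0.0258 and 0.0392), and Eef1e1 had -0.09 ± 0.10.

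Other cytosolic members kept closer levels. Aars, Dars, Nars, Tars, Vars, Yars and Qars had mean RPKM lower by 5.0% (Yars) to 13.0% (Vars) in old GSH-low than in young cells, with adjusted p of 0.116 or more by limma-trend. Cars was 7.3% higher, at 47.5 and 52.3 RPKM in old GSH-low cells against 46.8 and 46.2 RPKM in young cells. Mars and Iars overlapped between the groups. Among the 13 tested mitochondrial members, 3 lay lower without overlap (Fars2, Hars2 and Tars2) and 2 lay higher (Ears2 and Nars2). The shares of all genes lower and higher were 36.5% and 32.6%. The median of the 13 was -0.04, and 0.01 under library size only. The other mitochondrial members that were tested, Iars2, Rars2 and Yars2 among them, overlapped between these groups.

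**Figure D3:**
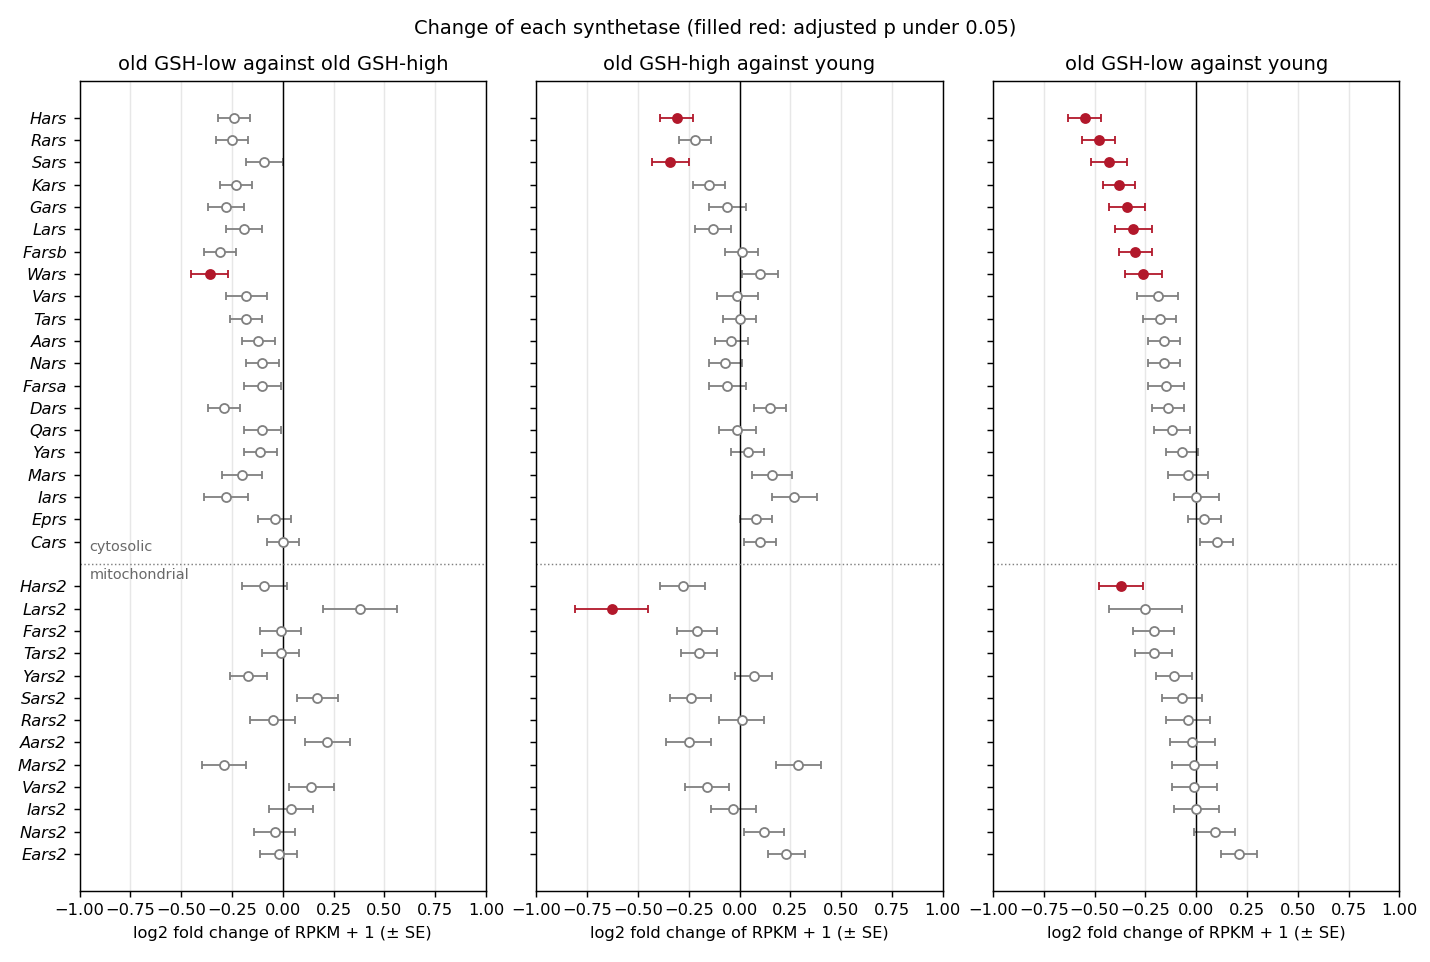
Fitted log2 fold change of RPKM + 1, with its SE, of the 33 tested synthetases in the 3 comparisons, cytosolic above mitochondrial; filled red points passed at an adjusted p under 0.05. Most cytosolic points lie left of 0 in the panels of old GSH-low, while they straddle 0 in that of old GSH-high against young.

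**Figure D4:**
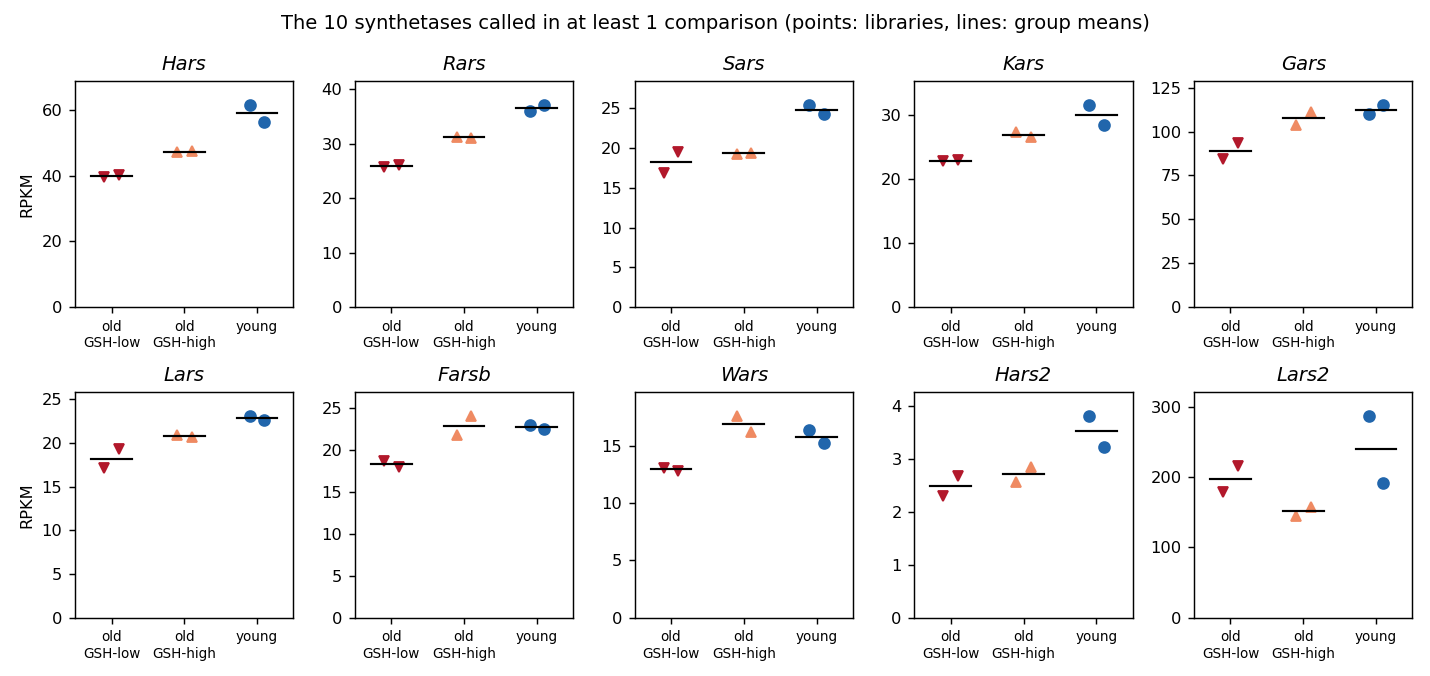
RPKM from 0 upward of the 10 synthetases that fell in at least 1 comparison, with a point for each library and a line at each group mean. Hars, Rars, Kars and Lars show old GSH-low lowest, old GSH-high between and young highest, without overlap. Wars and Farsb are low in old GSH-low alone, and Lars2 is lowest in old GSH-high.

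The genes around the synthetases were read from lists. Of the 13 synthetases listed as ATF4 targets from other cells, 11 lay lower without overlap in old GSH-low cells than in old GSH-high cells (median -0.18, 1 fell) and 9 lay lower than in young cells (median -0.16, 4 fell), beside 29.8% and 36.5% of all genes lower without overlap. Of the 7 other cytosolic synthetases, 7 lay below old GSH-high (median -0.24, 0 fell) and 6 below young (median -0.30, 4 fell). Whether listed and other synthetases differed was not tested. The ATF4 genes that are not synthetases had no shared direction by their medians. Of 33 tested, 4 rose and none fell in old GSH-low against old GSH-high (median -0.01), beside 3.69% and 1.69% of all genes. In old GSH-low against young 9 rose and 6 fell (median 0.00), beside 18.1% and 18.7% of all genes. In old GSH-high against young 3 rose and 8 fell (median 0.05), beside 15.1% and 13.7% of all genes. Atf4 itself averaged 374 ± 10.2, 371 ± 2.69 and 317 ± 26.8 RPKM (SD, n = 2 each) in old GSH-low, old GSH-high and young cells, and passed in no comparison. Among those that rose in old GSH-low against old GSH-high, Ddit3 (CHOP, a stress transcription factor) averaged 13.3 ± 0.637 and 9.01 ± 0.593 RPKM, beside 9.53 ± 1.78 in young cells. Atf3 averaged 167 ± 10.1 and 109 ± 3.37 RPKM, beside 186 ± 19.4 in young cells. In old GSH-high against young Atf3 fell by 0.77 on the log2 scale (limma-trend, adjusted p = 0.000648). Ddit3 shares 68 exon bases with the neighbouring synthetase gene Mars.

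Asns, the asparagine synthetase that is a textbook ATF4 target, averaged 7.16 ± 1.80, 5.97 ± 0.0503 and 5.64 ± 0.151 RPKM in old GSH-low cells, old GSH-high and young cells (SD, n = 2 each) and passed nowhere. Psat1, an enzyme of serine synthesis, fell by 0.97 on the log2 scale in old GSH-low and by 0.77 in old GSH-high against young cells (limma-trend, adjusted p = 5.81e-05 and 0.000302). The kinase gene Eif2ak4 averaged 4.66 ± 0.0585, 5.06 ± 0.320 and 4.10 ± 0.0183 RPKM in the 3 groups and did not pass. Of the 10 tested genes listed with it, 0 passed between the old fractions. Against young, 2 rose and 1 fell in old GSH-low, beside 18.1% and 18.7% of all genes. In old GSH-high 2 rose and 1 fell too, beside 15.1% and 13.7%. Impact and Eif2ak2 rose in both, Impact by 0.88 and 0.76 on the log2 scale (limma-trend, adjusted p = 0.000271 and 0.000774). Eif2ak1 fell in old GSH-low and Ppp1r15a in old GSH-high.

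Of 32 tested genes that make and export tRNA, 2 fell and none rose in old GSH-low against old GSH-high, beside 1.69% and 3.69% of all genes. Their median log2 fold change was -0.11, against -0.01 over all genes, and 17 of 32 lay lower without overlap, beside 29.8%. The 2 were methyltransferase genes, Trmt61a (log2 fold change -0.41 ± 0.09; limma-trend, adjusted p = 0.0409) and Nsun2 (38.9 ± 1.31 RPKM in old GSH-low cells and 49.7 ± 1.51 RPKM in old GSH-high cells). Against young cells 4 fell and 2 rose in old GSH-low, beside 18.7% and 18.1% of all genes, and 1 fell and 3 rose in old GSH-high, beside 13.7% and 15.1%. Elac2, the nuclease that trims tRNA 3′ ends, fell in both, with 14.3 ± 1.32 RPKM in old GSH-low cells, 17.9 ± 0.976 in old GSH-high and 23.3 ± 0.116 in young cells. Of 8 genes of tRNA charging and proofreading, Dtd1 (an enzyme that removes D-amino acids from tRNA) was the 1 that passed. It rose against young in both old fractions, beside 18.1% of all genes for old GSH-low and 15.1% for old GSH-high. Dtd1 had 7.56 ± 0.816 RPKM in old GSH-low cells and 7.18 ± 0.139 in old GSH-high cells, each above 5.50 ± 0.352 in young cells (SD, n = 2 each).

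Of 23 tested genes of amino acid sensing by mTORC1, 6 fell and 3 rose in old GSH-low against young, beside 18.7% and 18.1% of all genes. In old GSH-high against young 7 fell and none rose, beside 13.7% and 15.1% of all genes. Between the old fractions 1 of 23 rose in old GSH-low, beside 3.69% of all genes, and none fell, beside 1.69%. It was Nprl2, a subunit of the complex that restrains mTORC1 (limma-trend, adjusted p = 0.0467). Rragd, which encodes a Rag GTPase of amino acid sensing, was among those that fell against young in both old fractions: it averaged 3.19 ± 0.0269 RPKM in old GSH-low cells, 3.44 ± 0.0646 in old GSH-high and 5.85 ± 0.176 in young cells (SD, n = 2 each). Interferon-response genes were read because Wars is one in many cells. In old GSH-low against young 13 of 15 tested rose, beside 18.1% of all genes, and Wars fell. In old GSH-high against young 13 rose and 1 fell, beside 15.1% and 13.7%, and Wars did not pass (log2 fold change 0.10 ± 0.09). In old GSH-low against old GSH-high 4 rose and 1 fell, beside 3.69% and 1.69%, and Wars fell. Whether Wars moves with these genes was not tested.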

How the data were processed

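The deposited file holds RPKM per gene, made by the authors; the submitters' processing notes name Trim Galore, STAR, featureCounts of Subread and edgeR with build mm10 (GRCm38), without versions or the order of use. Per the labels' protocols, reverse transcription used oligo(dT) and sequencing was single-end. RPKM values were taken as log2(RPKM + 1), kept where a gene reached 1 RPKM in 2 or more libraries (10609 genes) and fitted with limma-trend (limma 3.58.1, R 4.3.3), with a mean for each of the 3 groups, the 6 libraries together and 3 residual degrees of freedom. The added 1 understates changes of low genes. A gene was called at a Benjamini-Hochberg adjusted p under 0.05 over all genes, two-sided; "lower without overlap" means every library of a group below every library of the other.

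Whole reads were recovered by trying GENCODE M21 exon lengths: within 0.02 reads plus a relative 3e-07, 98.5% of 11988 genes with a length gave whole reads in every library, all 36 members among them. None of the members had a replaced zero. Alternatives were a pseudocount of 0.1, no filter, other scalings, limma-voom on recovered reads, fits of only the 4 libraries compared, a block for replicate number and leaving out single libraries. The test was also run on simulated data, with planted changes larger than nearly all of those called among the members. That run therefore does not show how often changes as small as these are found. Similar sequences were sought with BLAST 2.17.0; figures used Python 3.11.15 with pandas 2.3.3 and matplotlib 3.10.9.

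P-values rest on 2 libraries per group. Whether the old fractions share pooled animals is not stated. The members and lists were chosen with earlier results of these data known. 1 member and 1 promoter stretch are not reported here. Every other member is named; members called, the 3 highest levels and the lowest ones and the smallest p-values are described in full, and up to 3 called genes per list with a fixed panel could be named beside them.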

Additional observations from a re-analysis of the deposited data

How the results depend on the processing

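The count of synthetases that fell in old GSH-low against old GSH-high was 0 with a pseudocount of 0.1 and with median-of-ratios scaling, 3 with only the 4 libraries of the comparison and 0 to 4 when 1 library was left out. In old GSH-high against young the count that fell was 0 to 4 when 1 library was left out, and the count that rose was 1 with limma-voom and 0 to 2 when 1 library was left out. In old GSH-low against young the count that fell was 2 to 10 when 1 library was left out, with 2 without old GSH-low replicate 1. A group left with 1 library is assumed to vary like the others.

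The labels do not say whether same-numbered old libraries share animals, and the replicate numbers were not used as pairs: differences between replicates 1 and 2 correlated at 0.07, -0.26 and -0.14 over genes between groups. With the replicate block no synthetase fell in old GSH-low against old GSH-high (0; Wars adjusted p = 0.0925), and the calls of Hars in old GSH-high against young (0.0501) and of Farsb (0.0525) and Wars (0.0690) in old GSH-low against young ended.

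Of 169 alternative values of the 13 called changes, 133 stayed called and 0 took another sign. Of 1118 alternative values of changes not called, 14 were called and 36 took another sign. With 2 libraries per group and small changes, a member that did not pass is not shown to be unchanged.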
